A study of Mus musculus with 4 samples.

Results

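The proximal signalling machinery of the T cell receptor was followed here as 44 genes listed by name. They encode the CD3 and zeta chains, the first kinases, adaptors and effector enzymes, and the phosphatases and other brakes that act on them. All 44 were among the 26207 genes of the deposited table. Bulk RNA-seq was done on mouse T helper 2 (Th2) cells, the CD4 helper T cells known for type 2 cytokines, in 4 libraries with spleen as the stated tissue. A pair of libraries came from cells given phosphate-buffered saline (PBS), and the other pair from cells given 10 µM dopamine, a catecholamine transmitter. The sources used here do not give strain, age, genotype, culture or length of treatment, or say whether the libraries are of separate animals or cultures. The p-values therefore reflect no more than how far libraries of a group lie apart, which may be technical variation. The question put to these genes was how their transcript levels differ between the dopamine and PBS libraries.

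When a T cell receptor binds its ligand, Lck phosphorylates motifs in the CD3 and zeta chains, ZAP-70 docks there, and it in turn phosphorylates the adaptors LAT and SLP-76. These adaptors gather phospholipase C-gamma1, exchange factors and actin regulators, from which calcium, Ras and NF-kB signals follow. Csk, phosphatases, ubiquitin ligases and diacylglycerol kinases hold the cascade back, and CD5 and CD6 are surface receptors that tune it.

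Libraries held 5717408 to 14167357 reads assigned to genes. The letters A and B only tell the libraries of a group apart. Levels are the authors' normalized counts (reads divided by a size factor per library), shown as mean ± SD of n = 2 libraries. Differences are log2 fold changes, dopamine minus PBS, of normalized counts plus 1, with standard error (SE). Adjusted p-values are from limma with Benjamini-Hochberg adjustment over all 26207 genes, and a gene is called at 0.05. The variance was shared across genes of like level with 42.4 prior degrees of freedom, so the p-values rest mostly on that pooled spread. The fewest reads of any of the 44 genes in a library were 64, for Tec in PBS A. As a check of the helper T cell part of the label, Cd4 stood at 4253 ± 24.3 with PBS and 4668 ± 115 with dopamine. The lowest value of Trac, Trbc1 or Trbc2 in any library was 3329, for Trbc1 in PBS A. These genes do not mark the Th2 state, which was not checked here.

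Transcripts of the receptor machinery moved in both directions. The surface receptors Cd6 and Cd5 and the protease Malt1 rose most. In the authors' scaling, the receptor chain Cd247, the kinase Zap70 and the adaptors Lat and Lcp2 rose by 31.1% to 36.1%. The adaptor Fyb, the Ras exchange factor Rasgrp1, the kinase Txk, the adaptors Skap1 and Themis and the phospholipase Plcg1 fell, Fyb by 52.5% of its PBS mean. Of the 44 genes, 14 were called higher, 11 lower and 19 were not called. The shares were 31.8% and 25.0%, against 14.3% and 7.00% of all genes, and against 39.1% and 7.90% of the 8492 genes that averaged 100 or more normalized counts, a level that 43 of the 44 reached. Against those 8492 genes, the share that rose was not above theirs, and the share that fell was. They have a floor of level in common with the 44 but were not matched to them in level. The 44 genes were also listed with earlier results of these data known, so the comparison is not a test. The number of calls also changed with the library left out, among the 44 genes and among all genes.

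**Figure D1:**
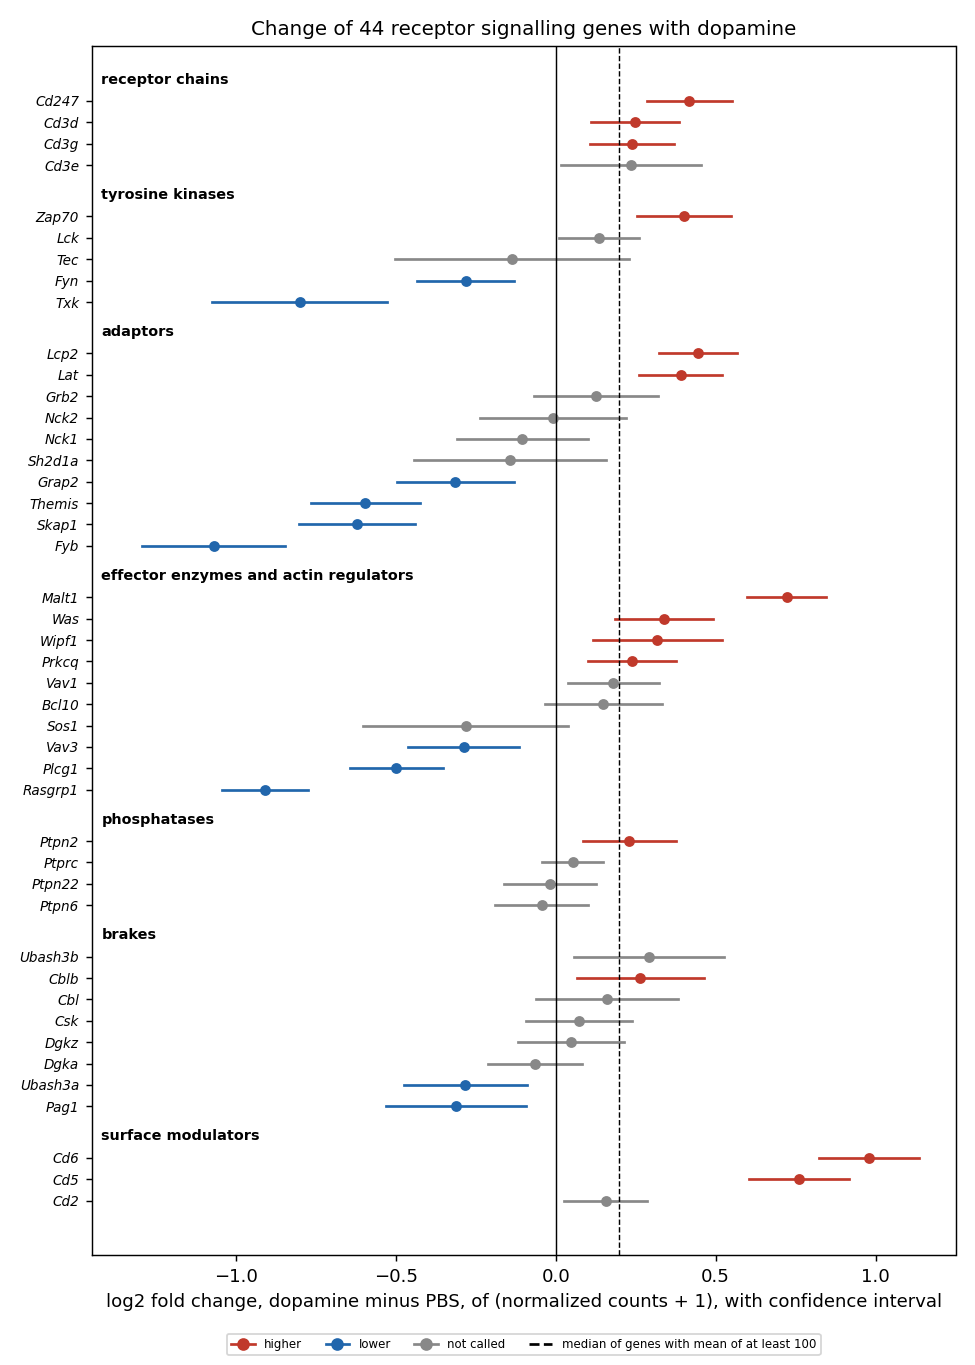
Log2 fold change (dopamine minus PBS) of each of the 44 genes with its 95% confidence interval from limma, grouped by role. Colour gives the call and the dashed line marks the median of genes averaging 100 or more normalized counts, 0.20. Fyb is lowest at -1.07 and Cd6 highest at 0.98.

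The direction of small changes depended on the scaling. In the authors' scaling the median log2 fold change was 0.10 for the 44 genes, 0.20 for genes averaging 100 or more and -0.08 for all genes. When the libraries were rescaled on those abundant genes, their median was 0.00, and 7 of the 44 genes were called higher and 17 lower. These are 15.9% and 38.6%, against 18.7% and 18.8% of the abundant genes, and the median of the 44 genes turned to -0.10. All 11 genes that fell were called lower in both scalings, whereas 7 of the 14 that rose were called in both. The 6 further genes called lower on rescaling were Nck1 (-0.30), Sos1 (-0.48), Ptprc (-0.14), Ptpn6 (-0.24), Ptpn22 (-0.21) and Dgka (-0.26). Changes of about 0.20 upward in the text below are therefore no larger than this shift. Both dopamine libraries lay above both PBS libraries for 22 of the 44 genes and below them for 11. These are 50.0% and 25.0%, against 60.8% and 15.4% of the abundant genes. A stricter count took only genes called under the reported fit and all 14 alternatives in processing, and 7 genes were higher and 6 lower. These 13 genes are 15.9% higher and 13.6% lower, against 16.3% and 4.36% of the abundant genes.

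**Figure D2:**
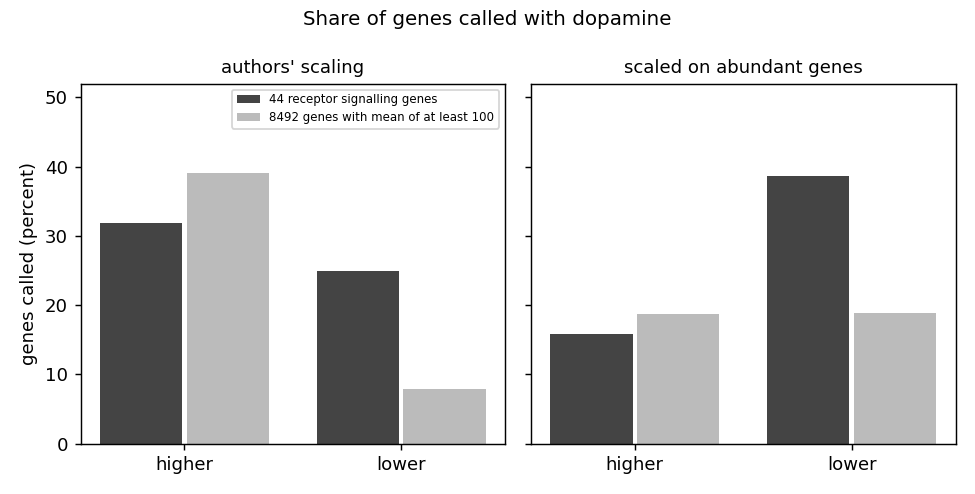
Percent of genes called higher or lower with dopamine among the 44 receptor signalling genes (dark bars) and the 8492 genes averaging 100 or more normalized counts (light bars), in the authors' scaling and after rescaling on those abundant genes. The dark bar for lower genes is the taller one in both panels, 25.0% against 7.90% and 38.6% against 18.8%. The 44 genes were chosen with earlier results of these data known and were not matched in level to the 8492.

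The receptor chains came first in the cascade, and 3 of 4 were called higher, or 1 on rescaling. For this and each role below, the abundant genes had 39.1% called higher and 7.90% lower, or 18.7% and 18.8% on rescaling. Cd247 encodes the zeta chain, which carries more phosphorylation motifs than the CD3 chains. It lies on chromosome 1 from 165788681 to 165877277 (mm10) and stood at 2704 and 2738 normalized counts with PBS and 3485 and 3796 with dopamine. Both dopamine libraries were above both PBS libraries, and the log2 fold change was 0.42 (SE 0.07, adjusted p = 3.31e-06), or 0.22 after rescaling on abundant genes. In GENCODE M21, 56.4% of the exonic length of Cd247 is shared with Pou2f1 on the opposite strand. The sources used here do not give the strand setting of the counting, so reads of the pair may not have been separated. The same limit holds for Sh2d1a (26.6% shared with Tenm1), Ptpn6 (6.96%), Lcp2 (6.32%) and Fyb (5.92%), each with a gene on the opposite strand. Cd3d rose from 2903 and 3316 to 3584 and 3784 (log2 fold change 0.25, SE 0.07, adjusted p = 0.00591). Cd3g rose from 3024 and 3246 to 3750.0 and 3645 (0.24, SE 0.07, adjusted p = 0.00563). On rescaling the log2 fold changes were 0.05 for Cd3d and 0.04 for Cd3g, and neither was called. Without PBS A neither call held (0.15 and 0.19), nor did Cd3d without dopamine B (0.21) or Cd3g without dopamine A (0.22). Cd3e was 345 and 414 with PBS and 439.7 and 451 with dopamine, which at 0.24 on the log2 scale (SE 0.11, adjusted p = 0.121) was not called. Cd3g, Cd3d and Cd3e lie side by side on chromosome 9, with 1354 bases between the first pair and 11.4 kb between Cd3d and Cd3e. Per kb of exon, Cd3e was at 93.0 normalized counts with PBS, against 959 for Cd3g and 1713 for Cd3d.

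Among the tyrosine kinases 1 rose, 2 fell and 2 were not called. On rescaling 1 was called higher and 2 lower. Zap70, whose kinase binds the phosphorylated receptor chains, stood at 1860.1 and 2086 with PBS and 2476 and 2733 with dopamine. The groups did not overlap, and the log2 fold change was 0.40 (SE 0.07, adjusted p = 3.54e-05), or 0.21 after rescaling. With the correction for GC content and length it was 0.14, still called. Lck, the kinase that starts the cascade, was 4991 and 5227 with PBS and 5345 and 5899.7 with dopamine. Its log2 fold change of 0.14 (95% interval 0.01 to 0.26, adjusted p = 0.114) was not called. Fyn, the other Src family kinase of the receptor, fell from 2230.4 and 2544 to 1859 and 2065 (-0.28, SE 0.07, adjusted p = 0.00412), which was not called without PBS B (-0.19) or dopamine A (-0.21). The Tec family kinases, which activate phospholipase C-gamma1, are represented by Txk and Tec, neighbours on chromosome 5 with 2938 bases between them. Txk fell from 239.5 and 264 to 137 and 151, at -0.80 on the log2 scale (SE 0.14, adjusted p = 1.07e-05). Tec was 109 and 84.3 with PBS and 85.6 and 88.4 with dopamine (-0.14, 95% interval -0.50 to 0.23, adjusted p = 0.64), so its groups overlapped. Whether Txk and Tec differ in their change was not tested.

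The 10 adaptors split, with 2 higher, 4 lower and 4 not called, where 39.1% of the abundant genes were higher and 7.90% lower. On rescaling 2 adaptors were higher and 5 lower, where the abundant genes had 18.7% and 18.8%. Lat and Lcp2 encode the membrane scaffold LAT and its partner SLP-76, the first targets of ZAP-70. Lat rose from 3088 and 3189 to 4020.0 and 4212 (log2 fold change 0.39, SE 0.06, adjusted p = 6.17e-06). Lcp2, on chromosome 11 from 34046920 to 34092295, rose from 4459 and 4667 to 6295 and 6127 (0.45, SE 0.06, adjusted p = 1.26e-07). Both also stayed higher after rescaling on abundant genes, at 0.20 and 0.25. With the correction for GC content and length they were 0.14 for Lat and 0.32 for Lcp2, both still called. Grap2 encodes Gads, which links LAT to SLP-76, and it fell from 849 and 1001 to 729.8 and 754 (-0.31, SE 0.09, adjusted p = 0.00902). That call ended without PBS B (-0.19) or dopamine A (-0.29).

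Fyb and Skap1 encode the partners ADAP and SKAP55, which join SLP-76 to integrin activation. Fyb, on chromosome 15 from 6522853 to 6663313, stood at 482 and 514 with PBS and at 237 in both dopamine libraries. This was the largest fall of the 44 genes, 52.5% of the PBS mean, or -1.07 on the log2 scale (SE 0.11, adjusted p = 2.15e-10). Skap1 fell from 909 and 1050.4 to 638 and 632 (-0.62, SE 0.09, adjusted p = 6.15e-07). Themis, which encodes a T cell adaptor best known from thymocyte selection, fell from 1128 and 1116 to 754 and 730.2 (-0.60, SE 0.08, adjusted p = 3.82e-07). For each of these adaptors the dopamine libraries lay below both PBS libraries, and each call held when any 1 library was left out. The remaining adaptors were not called in the authors' scaling. Grb2, which brings the Ras exchange factor Sos1 to LAT, had a log2 fold change of 0.13 (95% interval -0.07 to 0.32). Nck1 and Nck2, which link the receptor and SLP-76 to actin, had -0.10 (-0.31 to 0.10) and -0.01 (-0.24 to 0.22), and Nck1 was called lower on rescaling. Sh2d1a, the SLAM receptor adaptor SAP, had -0.14 (-0.44 to 0.16), with 26.6% of its exonic length shared with Tenm1 on the opposite strand. Each of these 4 had overlapping groups, and their adjusted p was 0.387 to 0.965.

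**Figure D3:**
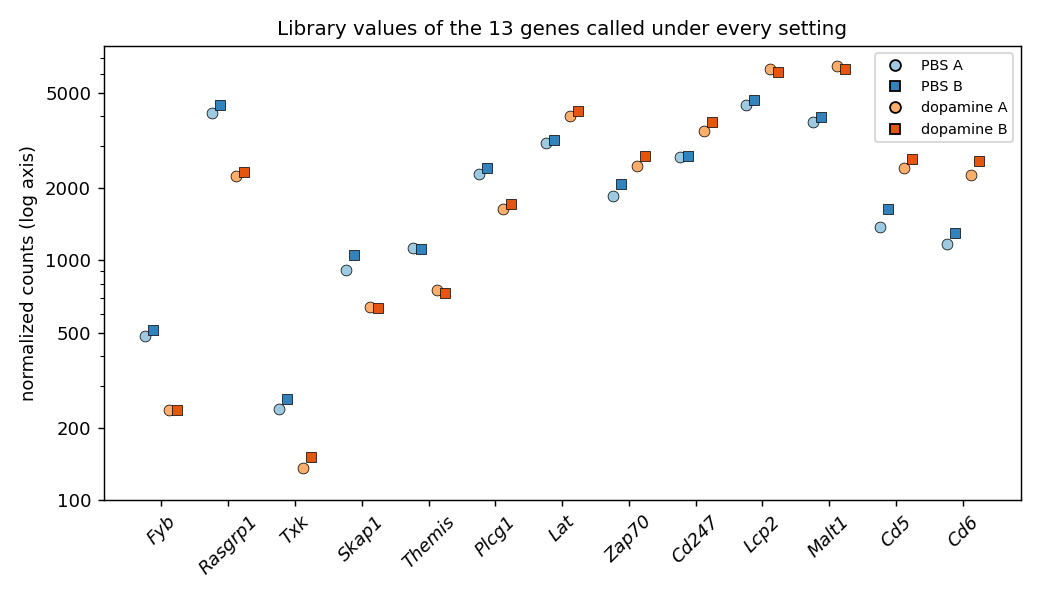
Normalized counts in each of the 4 libraries (log axis) for the 13 genes called under the reported fit and all 14 alternatives, ordered from the largest fall to the largest rise. In each gene the dopamine points (orange) lie wholly below or wholly above the PBS points (blue), as for Fyb at 237 and 237 against 482 and 514.

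RefSeq promoter windows on GRCm38.p6 were matched for 37 of the 44 genes, with 56 windows because some genes have several starts. The 250 bases before each start were searched on both strands for 5 motifs, none of which contains another. The motifs were CCGGAAG for ETS factors, TGTGGT for RUNX, CAGCTG for an E-box, TGANTCA for AP-1 and TGACGTCA for the cAMP response element (CRE). Among genes called under every setting, 4 had a window free of annotated exons, and 1 window is shown for each. For Zap70 and Txk, which had another such window, the one with a match nearest the start was taken after the search. Zap70, at chr1:36761548-36761797 on the plus strand, rose, and Txk (chr5:72736603-72736852, minus strand), Fyb (chr15:6579597-6579846, plus strand) and Themis (chr10:28668110-28668359, plus strand) fell. Capitals mark a match to any of these motifs.
Zap70: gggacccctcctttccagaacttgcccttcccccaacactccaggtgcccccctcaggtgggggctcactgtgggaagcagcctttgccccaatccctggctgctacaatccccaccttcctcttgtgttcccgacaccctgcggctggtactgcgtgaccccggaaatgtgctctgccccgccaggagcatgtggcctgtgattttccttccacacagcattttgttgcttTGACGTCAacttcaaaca
Txk: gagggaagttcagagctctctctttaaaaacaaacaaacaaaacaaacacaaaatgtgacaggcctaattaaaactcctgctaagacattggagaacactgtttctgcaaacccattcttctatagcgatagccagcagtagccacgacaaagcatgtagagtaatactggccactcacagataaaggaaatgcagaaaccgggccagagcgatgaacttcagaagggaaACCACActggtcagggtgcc
Fyb: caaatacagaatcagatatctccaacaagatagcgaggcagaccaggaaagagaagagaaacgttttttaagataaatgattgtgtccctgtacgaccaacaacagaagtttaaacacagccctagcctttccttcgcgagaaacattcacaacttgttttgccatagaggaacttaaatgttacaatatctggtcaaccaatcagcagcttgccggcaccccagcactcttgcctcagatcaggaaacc
Themis: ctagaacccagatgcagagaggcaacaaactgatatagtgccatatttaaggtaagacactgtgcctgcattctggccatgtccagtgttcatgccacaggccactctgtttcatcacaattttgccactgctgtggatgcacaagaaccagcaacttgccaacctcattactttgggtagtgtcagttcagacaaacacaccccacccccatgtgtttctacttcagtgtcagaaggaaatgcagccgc
The Zap70 window held a CRE beginning 18 bases before the start, the only CRE among the 56 windows, against 1.55% of all 32851 windows. The Txk window shown held a RUNX match on the opposite strand beginning 20 bases before the start, and 7 of 56 windows held one, against 14.0% of all. That window belongs to a start inside Txk as annotated in GENCODE M21 (72695978 to 72752777). The Txk window at the outer end of the gene, chr5:72752778-72753027, held none of the motifs. The Fyb window also lies inside its gene (6522853 to 6663313). The Fyb and Themis windows held none of the motifs. An E-box was in 2 windows (4271 of all 32851), an AP-1 match in 1 (6.75%) and the ETS letters in 0 (6.91%). Windows of 1 gene can overlap, and a match is a run of letters, not a site shown to be bound.

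All 10 effector enzymes and actin regulators had groups that did not overlap, 6 higher and 4 lower, where 60.8% of the abundant genes did not overlap higher and 15.4% lower. Of the 10, 4 were called higher and 3 lower, and 1 and 4 on rescaling. Rasgrp1 encodes a diacylglycerol-fed exchange factor that turns on Ras. On chromosome 2 from 117279993 to 117343001, it fell from 4121 and 4477 to 2248 and 2332, a change of -0.91 on the log2 scale (SE 0.07, adjusted p = 7.18e-15). Plcg1, whose phospholipase makes that diacylglycerol and the calcium-releasing inositol trisphosphate, fell from 2307 and 2439 to 1637 and 1722 (-0.50, SE 0.07, adjusted p = 5.05e-07). Vav3, which encodes a Vav family exchange factor, fell from 929 and 979.9 to 791 and 772 (-0.29, SE 0.09, adjusted p = 0.0123), and was no longer called without PBS A (-0.33), PBS B (-0.25) or dopamine B (-0.27). Its relative Vav1, the main Vav protein of T cells, was 2405 and 2575 with PBS and 2666 and 2982 with dopamine (0.18, adjusted p = 0.0613). Sos1, which encodes another Ras exchange factor, was 156 and 147.9 with PBS and 106 and 147.6 with dopamine (-0.28, 95% interval -0.60 to 0.04, adjusted p = 0.221). On rescaling Sos1 was called lower, at -0.48.

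The rises in this group were led by Malt1, the protease and scaffold of the complex with BCL10 that carries receptor signals to NF-kB. It lies on chromosome 18 from 65430938 to 65479067 and rose from 3800.0 and 3967 to 6489 and 6320.1, a change of 0.72 on the log2 scale (SE 0.06, adjusted p = 5.66e-13). Its partner Bcl10 was 685 and 668 with PBS and 739 and 761 with dopamine (0.15, 95% interval -0.03 to 0.33, adjusted p = 0.256). Prkcq encodes protein kinase C-theta, which switches that complex on, and it rose from 3688 and 4383 to 4557 and 4938 (0.24, SE 0.07, adjusted p = 0.00823). The Prkcq call did not hold on rescaling (0.04), without PBS A (0.11) or without dopamine B (0.18). Was, which encodes the Wiskott-Aldrich actin regulator WASP, rose from 1379 and 1404 to 1693 and 1830.3 (0.34, SE 0.08, adjusted p = 0.000645). Wipf1, which encodes the WASP partner WIP, rose from 447 and 513 to 575 and 619 (0.32, SE 0.10, adjusted p = 0.0177). On rescaling neither was called (0.14 and 0.12), and Wipf1 was not called without PBS A (0.22) or dopamine B (0.27) or with DESeq2.

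Of the 4 phosphatases 1 was called higher and none lower in the authors' scaling, with log2 fold changes from -0.04 to 0.23, and on rescaling 0 were called higher and 3 lower. Ptprc encodes CD45, which keeps Lck active, and it had the highest normalized count of the 44 genes. It was 39658 and 41958 with PBS and 41962 and 42731 with dopamine, a log2 fold change of 0.05 (95% interval -0.04 to 0.15, adjusted p = 0.459). On rescaling it was called lower, at -0.14, but with the correction for GC content and length it was called higher, at 0.16. Ptpn6, which encodes the inhibitory phosphatase SHP-1, had a log2 fold change of -0.04 (-0.19 to 0.10), and Ptpn22, which acts on Lck and ZAP-70, had -0.02 (-0.16 to 0.13). Ptpn6 and Ptpn22 were called lower on rescaling, at -0.24 and -0.21. Ptpn2, a phosphatase of Src and Janus kinases, rose from 1852 and 1931 to 2311 and 2128 (0.23, SE 0.07, adjusted p = 0.017). The Ptpn2 call ended on rescaling (0.03) and when PBS A (0.20), PBS B (0.26) or dopamine A (0.17) was left out.

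Of the 8 brakes, 1 was called higher and 2 lower, none under every setting. On rescaling 0 were called higher and 3 lower. Pag1, the membrane anchor of Csk, fell from 445 and 490.3 to 347 and 408 (log2 fold change -0.31, SE 0.11, adjusted p = 0.0328). Ubash3a, which encodes the weak phosphatase STS-2, was called lower at -0.28 (SE 0.09, adjusted p = 0.027), although its values of 922 and 1101 with PBS and 744 and 923 with dopamine overlapped. Pag1 was not called without PBS A (-0.38), PBS B (-0.24) or dopamine A (-0.20), nor Ubash3a without PBS B (-0.15) or dopamine A (-0.13), and neither was called with DESeq2. Cblb, a ubiquitin ligase that restrains T cells lacking costimulation, was called higher, from 538 and 685 to 741 and 719 (0.26, SE 0.10, adjusted p = 0.0491). That call ended under 10 of the 14 alternatives, among them rescaling (0.07), DESeq2 (0.24) and leaving out PBS A (0.09), dopamine A (0.24) or dopamine B (0.29). Csk, the kinase that switches Lck off, had a log2 fold change of 0.07 (95% interval -0.09 to 0.24). The diacylglycerol kinases Dgka and Dgkz, which remove the lipid that feeds Rasgrp1, had -0.06 (-0.21 to 0.08) and 0.05 (-0.12 to 0.21). Dgka was called lower on rescaling (-0.26), with edgeR's TMM (-0.18) and upper-quartile scaling (-0.26), and with the correction for GC content and length (-0.16). The ubiquitin ligase Cbl had 0.16 (-0.06 to 0.38) and Ubash3b, encoding STS-1, had 0.29 (0.06 to 0.53, adjusted p = 0.0684). The correction for GC content and length called Cbl (0.24) and Ubash3b (0.24) higher and Csk lower (-0.15). Ubash3b was also called higher with the filter at 5 CPM and with the replicate block.

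The surface modulators Cd5 and Cd6 had the largest rises of the 44 genes. They encode related scavenger receptor proteins whose tails recruit signalling molecules, and Cd5 is known to follow the strength of receptor signalling. The genes are neighbours on chromosome 19, Cd5 from 10717116 to 10739002 and Cd6 from 10789341 to 10830058. Cd6 rose from 1169 and 1299 to 2270.3 and 2603, an increase of 97.5% in the mean or 0.98 on the log2 scale (SE 0.08, adjusted p = 8.91e-14). Cd5 rose from 1374 and 1633 to 2425 and 2660.5, an increase of 69.1% (0.76, SE 0.08, adjusted p = 1.23e-10). After rescaling on abundant genes the log2 fold changes were 0.78 for Cd6 and 0.57 for Cd5, both still called. Cd2, an adhesion and costimulatory receptor, was 3975 and 4479 with PBS and 4656 and 4754 with dopamine (0.16, 95% interval 0.03 to 0.29, adjusted p = 0.0755).

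Levels per kb of exon spanned from 13.2 normalized counts for Sos1 to 2565 for Cd2, as the mean of the 4 libraries. By that mean Cd2, Ptprc, Cd3d, Lck, Lat and Lcp2 led, and Sos1, Txk, Tec and Sh2d1a were lowest. Cd2 was above Ptprc in each of the 4 libraries. Cd3d and Lck changed places between libraries, with Lck higher in PBS A (1704 against 1599), and Cbl lay below Sh2d1a with PBS (27.3 against 28.6), so neither pair has a fixed order. Rasgrp1 went from 768 to 409 per kb, from above Cd247 (511) with PBS to below it (683) with dopamine. Malt1 went from 215 to 355 per kb and Plcg1 from 302 to 214, so that their order also differed between the groups. Exonic length is the union of all annotated exons, which understates the level per kb of a gene with long exons that are seldom used.

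**Figure D4:**
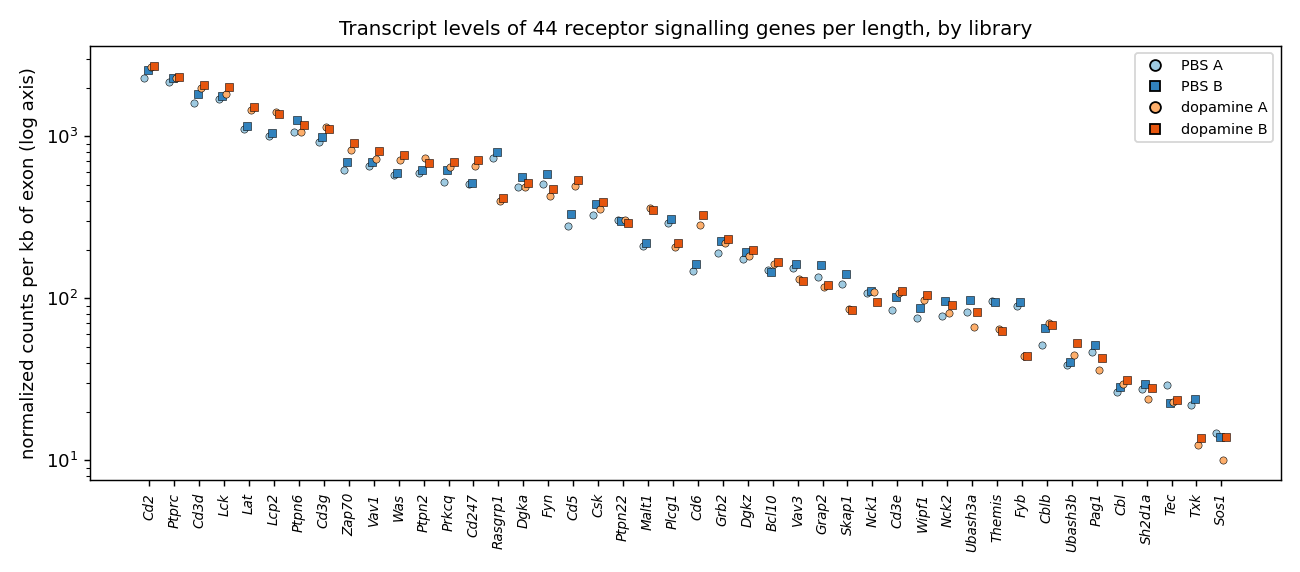
Normalized counts per kb of exon (log axis) in each of the 4 libraries for the 44 genes, ordered by their mean. Rasgrp1, Plcg1, Fyb and Txk have the PBS points (blue) above the dopamine points (orange), and Cd5, Cd6 and Malt1 the reverse.

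Other genes of the pathway, 67 listed by their role, showed 21 called higher and 8 lower. Of the 67, 61 averaged 100 or more normalized counts, a class of which 39.1% were called higher and 7.90% lower, so the count called higher is not above the background. After rescaling on abundant genes 10 were called higher and 18 lower, where the background was 18.7% and 18.8%. Ras and MAP kinase steps had 7 of 13 higher and 0 lower, with Hras (log2 fold change 0.67), Map2k2 (0.64), Sos2 (0.57) and Nras (0.34) named by smallest p. Nras was not called on rescaling (0.14). Hras and Nras encode the GTPases that Rasgrp1 activates. On rescaling this list had 3 higher and 1 lower. Other adaptors and scaffolds had 4 of 21 higher and 5 lower, and 2 higher and 8 lower on rescaling. Tespa1, a T cell adaptor of calcium signalling, fell from 405 ± 1.26 to 191 ± 4.27 (-1.08), and Gab2 fell by 1.00 on the log2 scale. Dok2, an inhibitory adaptor, rose from 787 ± 70.8 to 1422 ± 95.9 (0.85), and Trat1, an adaptor of the receptor complex, rose from 26.1 ± 0.944 to 77.2 ± 13.1 (1.52). Of 10 genes of PI3 kinase and lipid steps 4 were higher and 2 lower: the phosphatase gene Inpp4b fell (-0.54), as did the PI3 kinase subunit Pik3r1 (-0.30), and Dgke (0.51) and Akt1 (0.35) rose. On rescaling 1 was higher and 5 lower, and Akt1 was not called (0.16). Of 9 other phosphatases and ubiquitin ligases 1 was called, Nedd4 (-0.32). The 13 genes named here had an adjusted p of at most 0.0062 by limma.

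Markers of other cell types moved between the groups. Of 8 basophil and mast cell markers 7 were called lower, with summed normalized counts of 2216 to 2597 with PBS and 813 to 878 with dopamine. Of 7 platelet and red cell markers 6 were lower, with sums of 1563 to 1838 and 430.1 to 498. Of 7 monocyte and granulocyte markers 5 were lower, with sums of 440.0 to 473 and 130.4 to 134, and S100a8 and S100a9 were at 0 in dopamine B. Of 7 B cell markers 3 were higher, with sums of 150.2 to 190.3 and 376 to 386, and of 2 CD8 markers 1 was higher, with sums of 95.0 to 107 and 206 to 209. None of 3 NK cell markers was called, with sums of 16.9 to 44.2 and 24.3 to 30.9. The 4 helper T cell markers Cd4, Trac, Trbc1 and Trbc2 summed to 20485 to 21335 and 21934 to 22691, with Trac lower and Trbc1 and Trbc2 higher. On rescaling Trac was still called lower (-0.47), and Trbc1 (0.002) and Trbc2 (0.04) were not called. Fyb, Rasgrp1, Lat and Lcp2 are also used by mast cells or platelets, and Cd5 by some B cells. Klra8, Klra4, Hba-a1, Hbb-bs and Cd14 were not analysed here. The part of other cells in the changes of the 44 genes was not tested. In bulk RNA, fewer cells of a type and less RNA per cell cannot be told apart.

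In the authors' deposited DESeq2 table, 12 of the 44 genes had an adjusted p below 0.05 with a positive fold change and 9 with a negative one. All 21 were called the same way by limma, on the same libraries. Wipf1, Cblb, Pag1 and Ubash3a were called by limma but not there (adjusted p 0.085, 0.187, 0.112 and 0.0863 by DESeq2). The share of all genes called in that table was not worked out, so these counts have no background beside them.

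**Figure D5:**
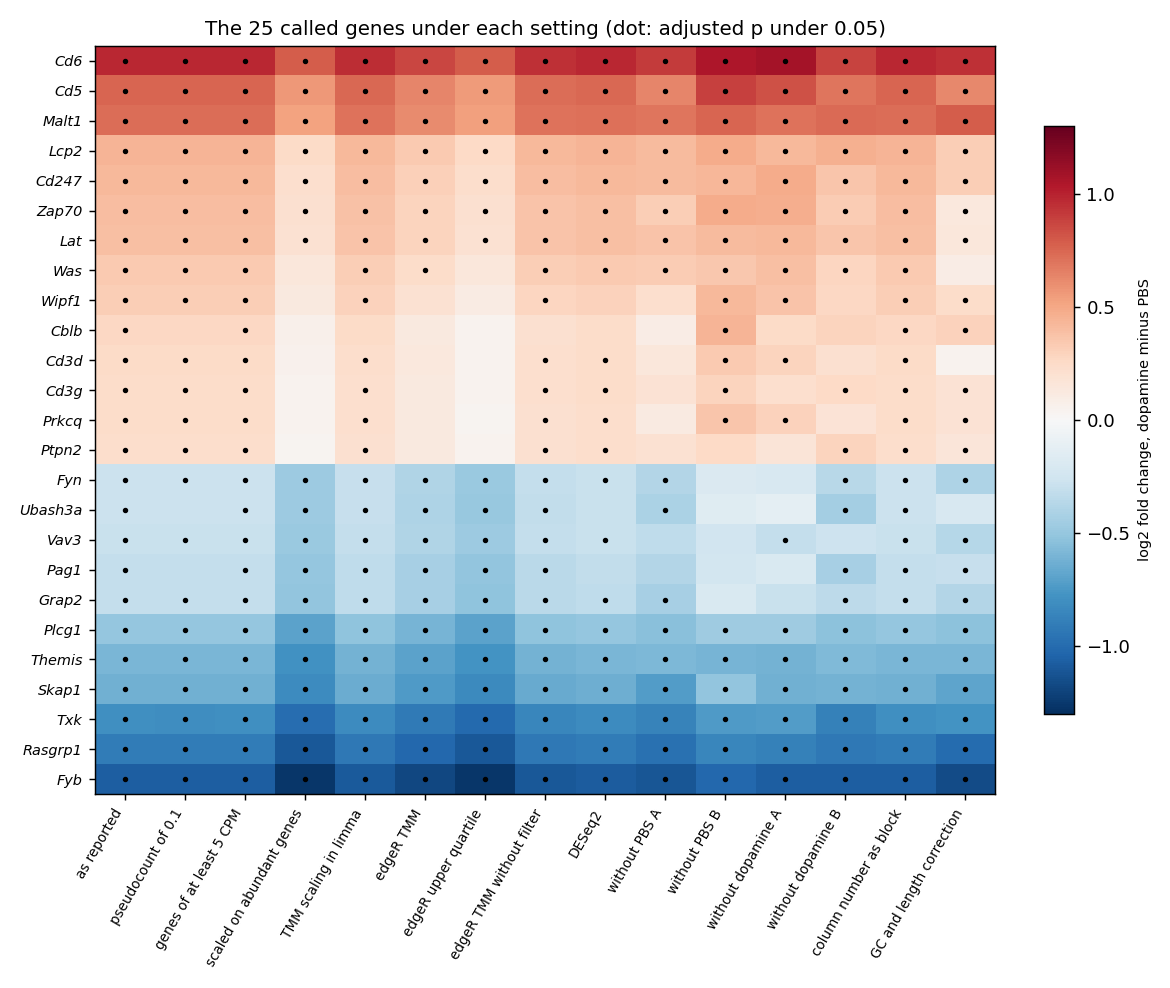
Log2 fold change (colour) of the 25 called genes (rows) under the reported fit and each of the 14 alternatives (columns), with a dot where the adjusted p is under 0.05. Dots run across the whole row for 13 genes, from Cd6 to Lat at the top and from Plcg1 to Fyb at the bottom, and are missing in places for the 12 between them.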

How the data were processed

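Total RNA of mouse Th2 cells was made into TruSeq Stranded mRNA libraries, per the labels' protocols. Per the submitters' processing notes, FastQC 0.11.2, TopHat2 2.0.13, HTSeq 0.6, DESeq2 and R 3.6.2 were used with mm10. The sources used here give neither the annotation nor the strand setting of the counting. Per the file headers, the authors deposited a DESeq2 comparison, with log2 fold changes and their standard error, a Wald score and p-values. In the 4 library columns the authors deposited normalized counts, a signal equal to reads over 1 size factor per library: 100% of values were whole reads within 0.01 once divided by the column's step. There were 0 columns of other samples. The columns carry the numbers 2 and 3 and the titles replicates 1 and 2, so columns were matched to groups only.

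The main test was limma 3.58.1 (R 4.3.3) on log2(value + 1) with a variance trend, 2-sided, without a filter, which understates the change of low genes. Alternatives were a pseudocount of 0.1, a filter at 5 CPM, scaling by TMM or on genes averaging 100 or more, edgeR 4.0.16 and DESeq2 1.42.0 on recovered reads, leaving out each library, a replicate block, and a loess fit on GC content and exonic length (11384 genes). Within groups, libraries differed beyond sampling noise, with a chi-square per degree of freedom of 2.64 (PBS) and 3.98 (dopamine). The 44 genes, their roles and the lists of other genes were chosen with earlier results of these data known. Every called gene among the 44 is named, as are up to 4 called genes per pathway list with the smallest p; 1 of the 5 pathway lists is counted in the total but not reported here. Locations and exonic lengths are from GENCODE M21 on mm10, and promoter sequences from RefSeq on GRCm38.p6.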

Additional observations from a re-analysis of the deposited data

How the results depend on the processing

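Of the 25 called genes none changed direction under any of the 14 alternatives, and 13 kept their call under all of them. Rescaling on abundant genes gave 7 of the 44 genes higher and 17 lower (1806 and 3178 of all genes, 10 and 18 of the other pathway genes). Upper-quartile scaling in edgeR gave 7 higher and 16 lower (2013 and 3149 of all genes, 11 and 20 of the other pathway genes). EdgeR with TMM gave 8 of the 44 higher and 12 lower, and 15 other pathway genes lower. The GC and length correction gave 14 other pathway genes lower. Of all genes 894 were lower among those of at least 5 CPM, where fewer genes were tested, and 719 with DESeq2. Leaving out 1 library gave 2152 to 3201 of all genes higher and 762 to 1389 lower, 8 to 14 higher and 6 to 10 lower of the 44, and 11 to 21 of the other pathway genes higher. The median log2 fold change of the 44 genes was 0.0995, and turned to -0.0958 when rescaled, -0.0242 with edgeR's TMM, -0.1078 with upper-quartile scaling and -0.0572 with the GC and length correction. With column numbers as a replicate block, 19 of the 44 genes were higher and 11 lower (4627 and 2372 of all genes, 27 and 12 of the other pathway genes); deviations of libraries with the same number correlated at 0.21 across 8492 genes, and the labels do not say that the numbers pair libraries. The other causes were not tested.

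Among the 19 genes not called, 15 changed sign under an alternative, 38 values in all, of which 2 passed the threshold: Ptprc when rescaled and Csk with the GC and length correction. When rescaled the log2 fold change was -0.0461 for Bcl10, -0.0342 for Cbl, -0.0384 for Cd2, -0.1225 for Csk, -0.147 for Dgkz, -0.069 for Grb2, -0.0587 for Lck, -0.1416 for Ptprc and -0.0155 for Vav1. With upper-quartile scaling in edgeR it was -0.0331 for Bcl10, -0.0351 for Cbl, -0.0378 for Cd2, -0.1311 for Csk, -0.1482 for Dgkz, -0.0844 for Grb2, -0.054 for Lck, -0.1371 for Ptprc and -0.0124 for Vav1. With edgeR's TMM it was -0.0472 for Csk, -0.0643 for Dgkz, -0.0011 for Grb2 and -0.0519 for Ptprc. With the GC and length correction it was -0.0578 for Cd2, -0.1521 for Csk, -0.0641 for Dgkz, -0.0342 for Grb2 and -0.0566 for Lck. Without PBS A it was -0.0384 for Csk, -0.0175 for Dgkz and 0.0451 for Tec. Without PBS B it was 0.0414 for Dgka, 0.144 for Nck2 and 0.0747 for Ptpn6. Without dopamine A it was 0.0711 for Nck2 and 0.0274 for Ptpn6, and without dopamine B -0.0215 for Dgkz, 0.003 for Nck1 and 0.0164 for Ptpn22. Leaving out 1 library gave ranges that reached -0.3185 for Tec, -0.211 for Nck1, -0.1615 for Nck2, -0.1629 for Ptpn6, -0.0493 for Ptpn22, 0.184 for Csk, -0.1698 for Dgka and 0.1182 for Dgkz at their other end. At 2 libraries a group, changes of about the size of the shift between scalings cannot be told from it.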
